A study of Drosophila melanogaster with 4 samples.

Results

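The mitochondrial genome of Drosophila melanogaster encodes 13 proteins in the annotation used here, and 10 of these genes had a row in the deposited table of normalized counts per gene. They were taken as the rows whose symbol names a subunit of NADH dehydrogenase (ND), cytochrome c oxidase (Co), cytochrome b (Cyt-b) or ATP synthase (ATPase) and whose value was at least 10 in at least 2 of 4 libraries. The 10 genes, of 10626 in the table, were mt:ND1, mt:ND2, mt:ND3, mt:ND4, mt:ND5, mt:Cyt-b, mt:CoI, mt:CoII, mt:CoIII and mt:ATPase6. All 10 reached that minimum in all 4 libraries, and the lowest value of any of them was 13.8 normalized counts. The remaining protein genes of the mitochondrial genome, mt:ATPase8, mt:ND4L and mt:ND6, were not analysed here as genes. RNA came from the fibrillar indirect flight muscle (IFM), which drives the wings, of flies reared at 27 °C and dissected as 1 d adults. The control strain was w1118. The mutant was bru1M3, a truncation allele of bru1 (which encodes a CELF family RNA-binding protein of flight muscle) in which a cassette with a splice acceptor, stop codons in each frame and a polyadenylation signal sits in the intron before the last shared coding exon. Each genotype had 2 libraries, each from a pool of flies, so flies within a library cannot be told apart. P-values rest on the spread between these pools, which the limma test draws toward the spread of other genes at a similar level.

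The mitochondrial genome is a small circle that codes only for subunits of the respiratory chain and ATP synthase and for the rRNAs and tRNAs that translate them, while all other subunits of the same complexes are encoded in the nucleus and imported. Complex I oxidizes NADH, complex III passes electrons from ubiquinol to cytochrome c, complex IV hands them to oxygen, and complex V uses the resulting proton gradient to make ATP. Genes lie on both strands and are transcribed into long precursors, most of which are cut at the tRNAs between them, so that genes of one precursor can still differ in steady-state level. Flight muscle packs its fibers with mitochondria and depends on oxidative phosphorylation.

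The libraries held between 30384053 and 34105524 recovered reads, the whole numbers of reads behind the normalized counts. Over the whole gene, bru1 stood at 1807 and 1386 normalized counts in w1118 and at 10618 and 9976 in bru1M3 (log2 fold change 2.70, SE 0.19, limma adjusted p = 1.89e-04), a count that covers exons on both sides of the insertion and does not test the truncation. Act88F, the actin of flight muscle, was abundant in every library, and the summed level of the 6 IFM markers ranged from 1008598 to 1023058 normalized counts in w1118 and from 973129 to 1368260 in bru1M3. Act88F was the largest part of this sum in every library, so the sum says little about the others. Taken singly, only Mf was called by limma, as higher in bru1M3 (1.16 on the log2 scale, adjusted p = 0.00727). Act88F (0.51) was above 0 without a call. The other 4, also not called, were below 0: Strn-Mlck (-0.64), salm (-0.40), fln (-0.35) and TpnC4 (-0.21). Markers of other tissues were low beside the IFM sum, but several moved with genotype, and their values are given after the results they accompany.

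Mitochondrial mRNAs took a smaller part of the reads in the mutant. The 10 genes together held 32.7% (replicate 1) and 26.6% (replicate 2) of the recovered reads in w1118, against 13.4% and 11.5% in bru1M3. Both mutant libraries lay below both controls, with means of 29.6% ± 4.29 (SD, n = 2) and 12.4% ± 1.28 (SD, n = 2), a difference of -17.2 percentage points. An exact two-sided permutation test gave p = 0.33, the smallest p that 2 libraries against 2 allow. Wilson 95% confidence intervals of the single shares, from 32.6% to 32.7% in w1118 replicate 1 for example, were far narrower than the spread between replicates and cover counting error only. Set against the reads of nuclear genes, the same 10 genes came to 119% and 73.2% in w1118 and to 22.7% and 16.3% in bru1M3. With this RNA from pooled tissue, fewer cells of a type, fewer mitochondria and less mitochondrial RNA per cell cannot be told apart.

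**Figure D1:**
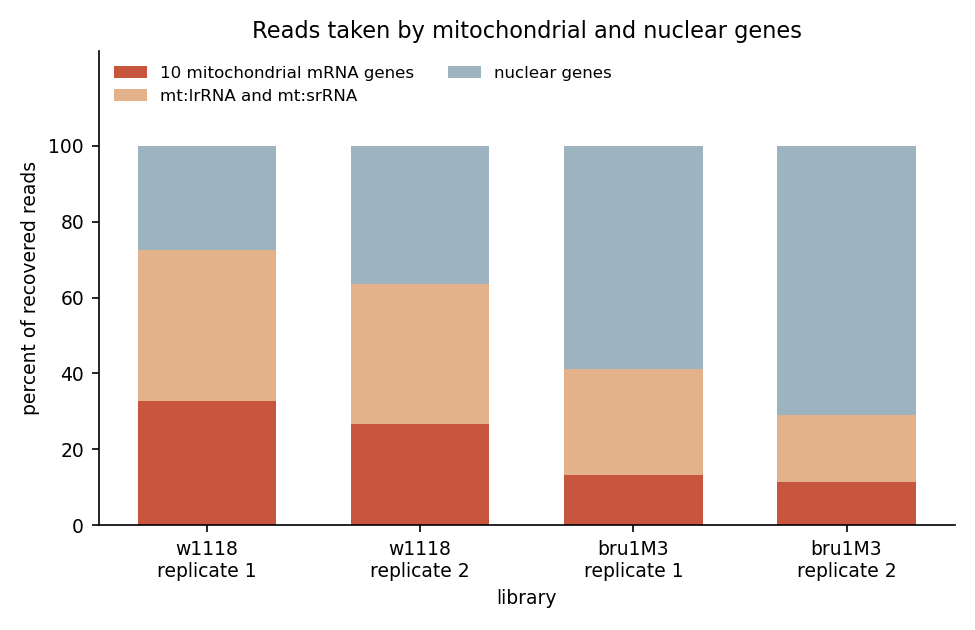
Stacked bars show the percent of recovered reads (y axis) in the 10 mitochondrial mRNA genes, the mitochondrial rRNAs and all nuclear genes for each of the 4 libraries (x axis). The mRNA segment falls from 32.7% and 26.6% in the w1118 libraries to 13.4% and 11.5% in the bru1M3 libraries, and the rRNA segment is smaller in bru1M3 as well.

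Every one of the 10 genes was lower in both bru1M3 libraries than in either w1118 library, on the scale of the deposited counts, which are divided by 1 size factor per library. Of all 9228 genes tested, 31.6% showed such a separation in this direction. With limma on log2(normalized count + 1) and Benjamini-Hochberg adjustment over all genes tested, 8 of the 10 passed an adjusted p of 0.05 and all 8 were lower, beside 9.33% of all genes called lower. None was called higher by limma, edgeR or DESeq2, and none was higher at an unadjusted p under 0.05. The median log2 fold change of the 10 genes was -2.58, beside -0.00 for all genes tested, and single values ran from -5.70 for mt:ND3 to -1.14 for mt:ND1. The genes that missed the threshold with limma were mt:CoI and mt:CoIII, whereas edgeR and DESeq2 on the recovered reads called all 10 lower, beside 9.83% and 10.9% of all genes. Leaving out any 1 library reduced the limma count to between 3 and 5, where the lone library of a genotype is assumed to vary like the others. That count was 3 without w1118 replicate 1, 5 without w1118 replicate 2, and 3 without either bru1M3 replicate. Only mt:ND5 and mt:ND4 were called in all 4 of these fits.

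**Figure D2:**
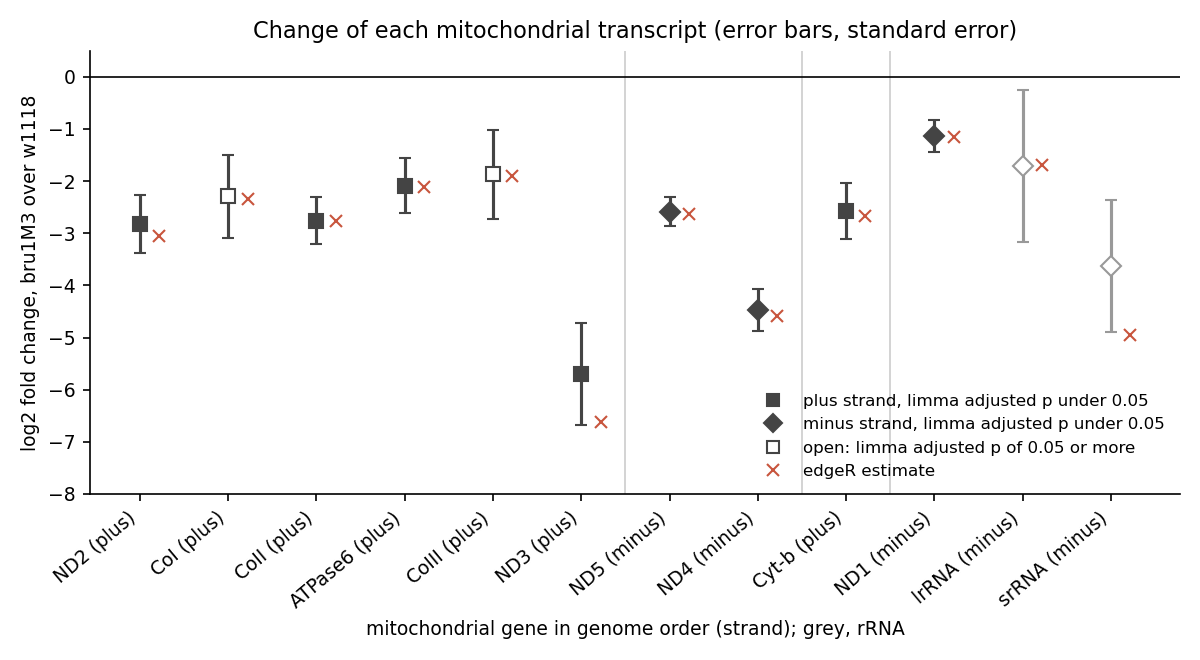
Squares (plus strand) and diamonds (minus strand) give the limma log2 fold change of bru1M3 over w1118 (y axis) with its standard error for the 10 genes and, in grey, the mitochondrial rRNAs, in genome order (x axis), and crosses give edgeR estimates. Vertical lines mark a change of strand, filled symbols passed an adjusted p of 0.05, all estimates are below 0, and mt:ND3 at -5.70 and mt:ND4 at -4.47 lie lowest.

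The mitochondrion encodes the core membrane subunits of complex I, of which 5 had rows, and all 5 passed the test with a median log2 fold change of -2.82. The gene mt:ND4 (FBgn0262952) encodes a proton-pumping subunit and lies on the minus strand at positions 8207 to 9545. It stood at 268588 and 115183 normalized counts in w1118 and at 7001 and 8975 in bru1M3. The lowest control value was 12.8 times the highest mutant value. Its log2 fold change was -4.47 (SE 0.40, limma adjusted p = 4.23e-04), and it was called without any 1 library, with an adjusted p of at most 0.0339.

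The neighbouring gene on the same strand, mt:ND5 (FBgn0013684, 6409 to 8125), encodes another proton-pumping subunit of the membrane arm. It gave 147635 and 92621 normalized counts in w1118, and 18951 and 20000 in bru1M3. Its mutant libraries were close to each other, and its groups were separated by a factor of 4.63. The fold change was smaller than for mt:ND4 at -2.59 on the log2 scale (SE 0.28, limma adjusted p = 9.97e-04), and without any 1 library the adjusted p reached at most 0.0331.

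The gene mt:ND1 (FBgn0013679), which encodes a subunit where the membrane arm joins the ubiquinone-binding part of complex I, lies on the minus strand at 11721 to 12659. Its normalized counts were 185596 and 129967 in w1118 and 77814 and 64146 in bru1M3. Here the groups came closest of all 10 genes, with a lowest control value 1.67 times the highest mutant value. The log2 fold change was -1.14 (SE 0.31, limma adjusted p = 0.0400). That call was lost without any 1 library (adjusted p of 0.0753 to 0.311), with the replicate number as a block (0.0780), and with equal totals of all genes, where the log2 fold change was -0.23.

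The gene mt:ND3 (FBgn0013681), a small membrane subunit of complex I, lies on the plus strand at 5608 to 5961 and had the largest fold change of the 10. Its normalized counts were 12161 and 1004 in w1118 and 54.6 and 80.0 in bru1M3, from 7146, 916, 80 and 104 recovered reads. Both control libraries were above both mutants, but the controls themselves differed by a factor of 12.1. The log2 fold change was -5.70 (SE 0.98, limma adjusted p = 0.00708) with all libraries, -3.90 without w1118 replicate 1 and -7.50 without w1118 replicate 2. Its call was lost without either bru1M3 library (adjusted p = 0.135 without replicate 1 and 0.0906 without replicate 2) and with robust empirical Bayes in limma (0.108).

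The gene mt:ND2 (FBgn0013680), which encodes a proton-pumping membrane subunit, is the first protein gene in the numbering of the genome, on the plus strand at 240 to 1263. It had by far the lowest counts, 196 and 66.8 normalized counts in w1118 and 17.1 and 13.8 in bru1M3, from 115, 61, 25 and 18 recovered reads. The lowest control was 3.92 times the highest mutant value. Its log2 fold change was -2.82 (SE 0.56, limma adjusted p = 0.0130), and the call was lost without w1118 replicate 1 (0.0523) or either bru1M3 library (0.119 and 0.112).

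The only mitochondrial gene of complex III is mt:Cyt-b (FBgn0013678), the heme-binding core of that complex, on the plus strand at 10499 to 11635. Its normalized counts were 1709809 and 787036 in w1118 and 195346 and 195089 in bru1M3. The mutant libraries were almost identical, while replicate 1 of the controls was 2.17 times replicate 2. The log2 fold change of -2.57 (SE 0.53) passed the test with limma (adjusted p = 0.0153) but was not called without any 1 library (adjusted p of 0.0531 to 0.155).

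Complex IV has its catalytic core encoded in the mitochondrion. The gene mt:CoII (FBgn0013675, plus strand, 3083 to 3767), whose protein takes up electrons from cytochrome c, had 1221751 and 869813 normalized counts in w1118 and 136732 and 169867 in bru1M3. Its groups were separated by a factor of 5.12, the widest gap outside mt:ND3 and mt:ND4. It had a log2 fold change of -2.76 (SE 0.44, limma adjusted p = 0.00550), and the call was lost without w1118 replicate 1 (0.0738).

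The genes mt:CoI (FBgn0013674, plus strand, 1474 to 3009), which encodes the subunit that reduces oxygen, and mt:CoIII (FBgn0013676, plus strand, 4736 to 5524), which encodes a core subunit that stabilizes it, had the most counts of the set. Normalized counts of mt:CoI were 5877006 and 3452146 in w1118 and 883723 and 954007 in bru1M3. Those of mt:CoIII were 5917275 and 3553502 in w1118 and 1448994 and 1093446 in bru1M3. Neither gene overlapped between genotypes, with the lowest control at 3.62 and 2.45 times the highest mutant. With limma, mt:CoI had a log2 fold change of -2.29 (SE 0.80, adjusted p = 0.0812) and mt:CoIII of -1.87 (SE 0.85, adjusted p = 0.160), so neither was called. The edgeR quasi-likelihood test gave nearly the same fold changes, -2.34 and -1.90, and called both (adjusted p = 0.00919 and 0.0215). Their standard errors were the largest of the set after mt:ND3. Yet their w1118 replicates, at ratios of 1.70 and 1.67, were closer to each other than those of mt:ND4 at 2.33. These errors are drawn toward those of other genes at a similar level and are not the spread of the gene alone. Quantile normalization, which gives the highest ranks of each library the same value, put both at 0.00 by its construction.

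For complex V, mt:ATPase6 (FBgn0013672, plus strand, 4062 to 4736) encodes the subunit of the proton channel next to the rotating ring. It stood at 1546875 and 933398 normalized counts in w1118 and at 332434 and 239774 in bru1M3. Its groups were separated by a factor of 2.81. The log2 fold change was -2.09 (SE 0.53, limma adjusted p = 0.0307). As for mt:ND1, this call was lost with the replicate number as a block (0.0831), without any 1 library (0.0503 to 0.277) and with equal totals of all genes (0.10). In the annotation mt:ATPase6 overlaps mt:ATPase8 and mt:CoIII by a few bases and mt:ND4 overlaps mt:ND4L, and how reads in overlaps were counted is not given in the sources used here.

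The w1118 replicates differed from each other in all 10 genes in the same direction. Replicate 1 was higher than replicate 2 by a factor of 1.4 to 12.1, with a median of 1.68, whereas the median over all genes tested was 1.01, and 13.7% of the nuclear genes had a ratio above 1.4. In bru1M3 the ratio of replicate 1 to replicate 2 was 0.683 to 1.39 with a median of 0.974, and 5 of the 10 genes were higher in replicate 1. The control libraries thus differed in all 10 genes in one direction, and the mutant libraries did not.

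Levels were compared between genes per kb of gene length. In the w1118 mean the order from high to low was mt:CoIII, mt:CoI, mt:ATPase6, mt:CoII, mt:Cyt-b, mt:ND1, mt:ND4, mt:ND5, mt:ND3 and mt:ND2. From the first to the last of these, the level per kb spanned a factor of 46819 in w1118 and of 106779 in bru1M3. The part of read counting and of poly-A selection in these differences between genes was not tested. In w1118 the ranges of 4 of the 9 neighbouring pairs in this order overlapped, namely mt:CoI with mt:ATPase6, mt:ATPase6 with mt:CoII, mt:CoII with mt:Cyt-b, and mt:ND1 with mt:ND4. In bru1M3 none of the 9 neighbouring pairs overlapped. The rank was the same in all 4 libraries for 7 of the genes, and the others, mt:ND1, mt:ND4 and mt:ND5, exchanged places. In both w1118 libraries mt:ND4 was above mt:ND5 per kb, and in both bru1M3 libraries it was below.

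**Figure D3:**
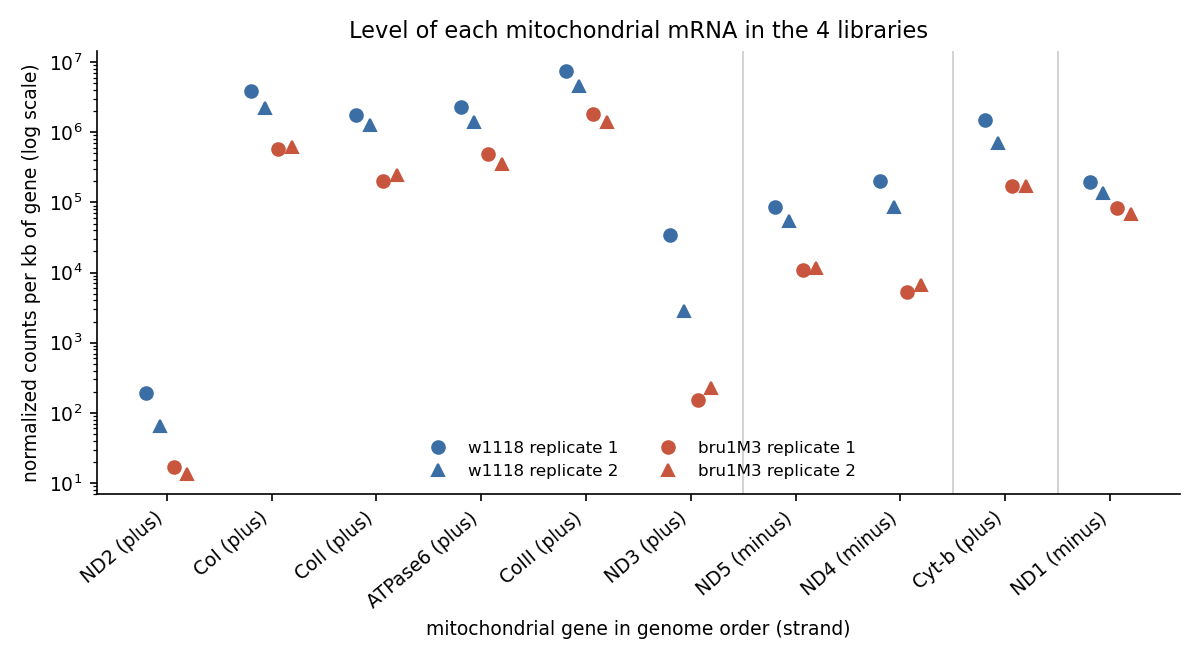
Points give the normalized counts per kb of gene length (y axis, log scale) of the 10 genes in genome order (x axis), with circles for replicate 1 and triangles for replicate 2 of w1118 (blue) and bru1M3 (red), and vertical lines at a change of strand. Both bru1M3 points lie below both w1118 points for each gene, the order of most genes is the same in the 4 libraries, and mt:ND2 and mt:ND3 lie lowest.

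By strand, 7 of the genes lie on the plus and 3 on the minus strand. The median log2 fold change was -2.57 for the plus strand and -2.59 for the minus strand. With limma, 5 of 7 and 3 of 3 genes were called lower, beside 9.33% of all genes tested. The plus-strand genes not called were mt:CoI and mt:CoIII, which edgeR and DESeq2 called lower. Genes of the plus strand held 96.4% and 96.6% of the summed mitochondrial mRNA counts in w1118, against 96.7% and 96.6% in bru1M3. Among these mRNAs the balance of the strands was thus nearly the same in every library. Yet the genes of the minus strand, at 3.35% to 3.56% of the sum, differed widely from one another in fold change. The shares of mt:ND5 and mt:ND4 together were 2.46% and 2.09% in w1118 and 0.837% and 1.06% in bru1M3, while that of mt:ND1 was higher in bru1M3. The sum leaves out mt:lrRNA of the minus strand. Its counts came to 122% and 139% of the sum in w1118 and to 209% and 151% in bru1M3, without overlap. Complex I genes together, which include all 3 genes of the minus strand, held 3.64% and 3.41% in w1118 and 3.35% and 3.40% in bru1M3, and complex IV genes 77.1% and 79.3% in w1118 and 79.6% and 80.8% in bru1M3.

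Some neighbours on the genome differed in fold change. The genes mt:ND5 and mt:ND4 follow each other on the minus strand, and the ratio of mt:ND5 to mt:ND4 per kb was 0.429 and 0.627 in w1118 and 2.11 and 1.74 in bru1M3. Along the first run of plus-strand genes (mt:ND2, mt:CoI, mt:CoII, mt:ATPase6, mt:CoIII, mt:ND3), the adjacent mt:CoIII and mt:ND3 had a ratio per kb of 218 and 1589 in w1118 and of 11909 and 6134 in bru1M3. Both ratios separated the genotypes, with the mt:CoIII to mt:ND3 ratio also differing between the control libraries. By contrast, mt:CoIII and mt:ATPase6, which abut with no tRNA between them, had ratios closer together, 3.27 and 3.26 in w1118 and 3.73 and 3.90 in bru1M3, though without overlap. The ratio of mt:CoI to mt:CoII was 2.15 and 1.77 in w1118 and 2.88 and 2.50 in bru1M3. Within the run, mt:ND2 and mt:ND3 at its ends were the least abundant genes of the whole set. The ratio of mt:CoI to mt:ND2 per kb was 20020 and 34438 in w1118 and 34534 and 45947 in bru1M3.

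To ask which gene changed more or less than the mitochondrial mRNAs as a whole, each library was also scaled to the same sum over the 10 genes. As shares of that sum, mt:CoI made up 34.8% and 34.7% in w1118 and 28.5% and 34.7% in bru1M3. The share of mt:CoIII was 35.0% and 35.8% in w1118 and 46.7% and 39.8% in bru1M3. Together they made up 70.2% of the sum in the w1118 mean and 74.9% in the bru1M3 mean. These abundant genes set most of the sum, so that small changes in them shift all other shares.

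After this scaling, 2 of the 10 genes were called lower by limma, mt:ND3 and mt:ND4, beside 0.379% of all genes tested. The share of mt:ND4 was 1.59% and 1.16% in w1118 and 0.226% and 0.327% in bru1M3, a relative log2 fold change of -2.32 (SE 0.56, limma adjusted p = 9.34e-05) whose adjusted p was 0.0582 without bru1M3 replicate 1. That of mt:ND3 was 0.0720% and 0.0101% in w1118 and 0.00176% and 0.00291% in bru1M3, a relative log2 fold change of -3.55 (SE 0.52, limma adjusted p = 2.26e-10) that ranged from -4.97 to -2.14 when 1 library was left out. Both genes thus fell further than the sum. In this fit 83.8% of all genes were called higher, since nuclear genes are measured against the mitochondrial sum. The 0.379% called lower is therefore small by construction and is no background for genes set against their own sum. The standard errors of the members are set largely by the nuclear genes. Their adjusted p-values thus do not measure the spread of the members between libraries, which was wide for mt:ND3 in w1118.

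None of the 10 genes was called higher than the sum with limma in this scaling, and none reached an unadjusted p under 0.05 in that direction. The largest positive value belonged to mt:ND1, with shares of 1.10% and 1.31% in w1118 and 2.51% and 2.34% in bru1M3 and a relative log2 fold change of 1.01 (SE 0.59, limma adjusted p = 0.0983). It was called higher when the most abundant gene was left out of the sum (1.2 on the log2 scale, limma adjusted p = 0.0333). With the replicate number as a block mt:ND1 was also called higher (limma adjusted p = 2.11e-07), and mt:CoII, mt:ND5 and mt:Cyt-b joined the genes called lower. Same-numbered libraries share only a number (correlation of their deviations 0.03), so the block has no basis in the design and its calls add no support. The ratio of mt:Cyt-b to mt:ND1, which face each other on opposite strands, was 7.61 and 5.00 per kb in w1118 and 2.07 and 2.51 in bru1M3. Both bru1M3 shares lay below both w1118 shares for 6 genes, beside 1.02% of all genes tested on this scale, and above them for 2 genes, mt:CoIII and mt:ND1, beside 90.5%. The percentages over all genes are set largely by the scaling itself. The shares of mt:CoI and mt:ATPase6 overlapped, and mt:ATPase6 held 9.16% and 9.40% of the sum in w1118 and 10.7% and 8.73% in bru1M3. The shares of the remaining genes were 7.23% and 8.76% against 4.41% and 6.19% for mt:CoII, 10.1% and 7.92% against 6.30% and 7.11% for mt:Cyt-b, and 0.874% and 0.932% against 0.611% and 0.729% for mt:ND5, all lower in bru1M3. The share of mt:ND2 was 0.00116% and 6.7e-04% in w1118 and 5.5e-04% and 5.0e-04% in bru1M3.

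**Figure D4:**
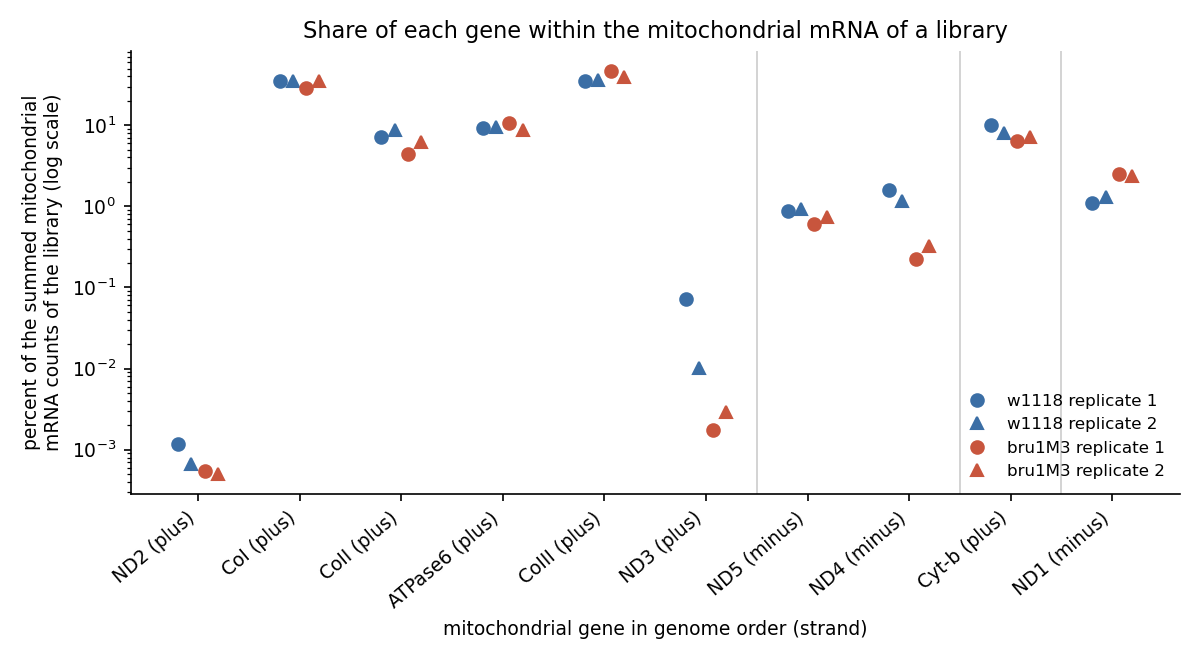
Points give the percent of the summed mitochondrial mRNA counts of a library (y axis, log scale) held by each gene in genome order (x axis), with circles for replicate 1 and triangles for replicate 2 of w1118 (blue) and bru1M3 (red), and vertical lines at a change of strand. The shares of mt:ND3 and mt:ND4 are lower in both bru1M3 libraries, that of mt:ND1 is higher in both, and those of mt:CoI and mt:ATPase6 overlap.

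The mitochondrial rRNAs lie beside mt:ND1 on the same minus strand, upstream of it in the direction of transcription. The large rRNA, mt:lrRNA (FBgn0013686, 12735 to 14058), had 20649485 and 13849041 normalized counts in w1118 and 6479236 and 4156744 in bru1M3. It took 39.9% and 37.1% of the reads in w1118 and 27.9% and 17.5% in bru1M3. Its groups did not overlap, and its log2 fold change of -1.70 (SE 1.45) was not called with limma (adjusted p = 0.438) or edgeR (0.0558), while DESeq2 called it lower (2.49e-08). The small rRNA, mt:srRNA (FBgn0013688, 14131 to 14916), gave 1002 and 41.6 normalized counts in w1118 and 21.2 and 11.5 in bru1M3, a log2 fold change of -3.63 (SE 1.27, limma adjusted p = 0.0817; edgeR adjusted p = 0.0284). Like mt:ND3 it was far higher in w1118 replicate 1 than in the other control, and without that library its log2 fold change was -1.36. The ratio of mt:lrRNA to mt:ND1 per kb was 78.9 and 75.6 in w1118 and 59.1 and 46.0 in bru1M3. These RNAs were read after poly-A selection, which retains an RNA by its tail, and the part of tail length in any of these values was not tested.

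Nuclear genes for subunits of the same complexes shifted much less than the mitochondrial genes. Of 71 tested, 22 were lower and none higher with limma (edgeR 21 and 0, DESeq2 29 and 0, and none higher at an unadjusted p under 0.05). Over all genes tested, 9.33% were called lower with limma, 9.83% with edgeR and 10.9% with DESeq2. The median log2 fold change of the nuclear subunits was -0.51, and it was 0.39 with equal totals of all genes, where 0 were called lower and 3 higher. That scaling moved the median of all genes tested to 0.89, and relative to it the nuclear subunits stood at -0.50. With limma the count of 22 lower genes was 1 without w1118 replicate 1, 4 without w1118 replicate 2, 0 without bru1M3 replicate 1 and 29 without bru1M3 replicate 2. It was 44 with equal totals of nuclear genes and 14 with the replicate number as a block. By complex, 15 of 33 tested genes of complex I were lower with a median of -0.63, 0 of 4 of complex II (-0.31), 4 of 9 of complex III (-0.58), 2 of 11 of complex IV (-0.57) and 1 of 14 of complex V (-0.42). For complex II, which has no mitochondrial gene, limma, edgeR and DESeq2 called none and none reached an unadjusted p under 0.05. No nuclear subunit fell as far as the median mitochondrial gene, and only ND-B8, with a log2 fold change of -1.21, lay below mt:ND1. The value farthest above 0, 2.58 for ATPsynepsilonL, came from 0.0 to 16.1 normalized counts and was not called (limma adjusted p = 0.137).

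The most abundant nuclear subunits illustrate this. In complex I, ND-MLRQ and ND-49 had log2 fold changes of -0.50 and -0.42 (limma adjusted p = 0.159 and 0.269), and in complex II the dehydrogenase subunit SdhA and the membrane anchor SdhC had -0.45 and -0.34 (0.302 and 0.307). In complex III the values were -0.38 for UQCR-C1 and -0.80 for UQCR-14, of which only the latter was called (limma adjusted p = 0.376 and 0.0453). The call of UQCR-14 was lost with no filter on low values (0.0528), with the replicate block (0.107) and without w1118 replicate 1, w1118 replicate 2 or bru1M3 replicate 1 (limma adjusted p = 0.286, 0.189 and 0.0773). COX4 and COX5A of complex IV had -0.36 and -0.45, and ATPsynC and ATPsynbeta, the ring and catalytic subunits of complex V, had -0.52 and -0.03, none of them called with limma (adjusted p = 0.352, 0.192, 0.419 and 0.966). All of these values were above 0 with equal totals of all genes, as was the median of all genes tested at 0.89. The summed counts of the 10 mitochondrial genes were 6.47 and 4.09 times those of the nuclear subunits in w1118 and 1.96 and 1.24 times in bru1M3, so the balance between the genomes differed without overlap and whatever the scaling.

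**Figure D5:**
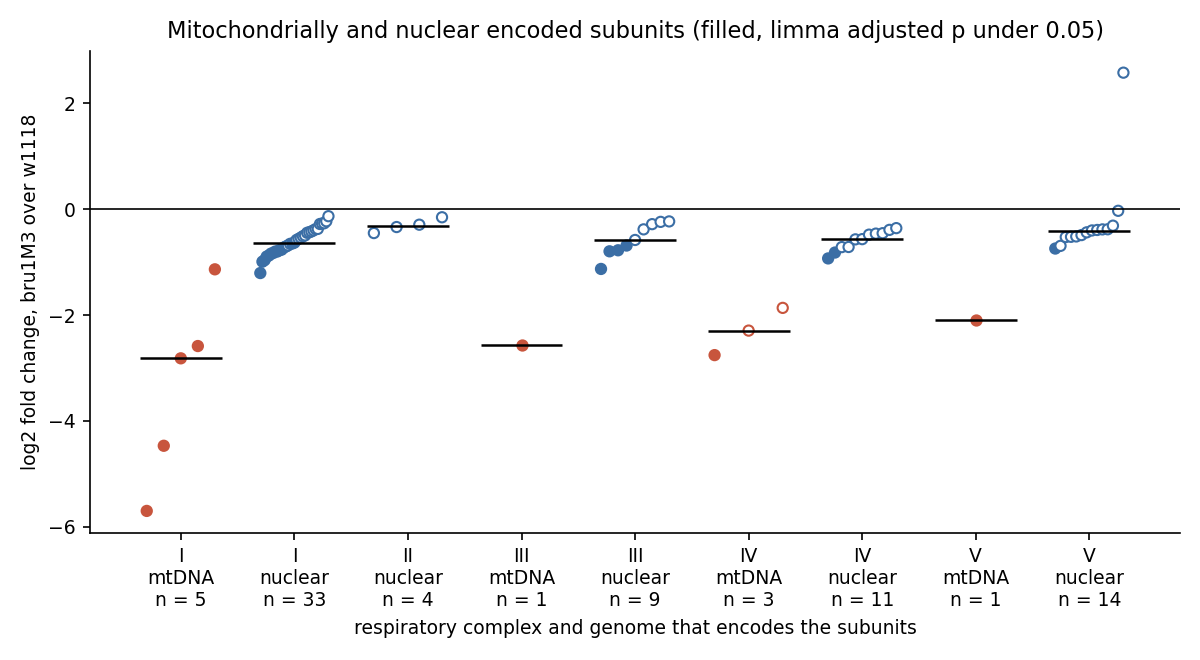
Points give the limma log2 fold change of bru1M3 over w1118 (y axis) for subunits encoded by mitochondrial DNA (red) or nuclear DNA (blue) of each respiratory complex (x axis), with filled points past an adjusted p of 0.05 and lines at the medians. Mitochondrial medians lie between -2.82 and -2.09 and nuclear medians between -0.63 and -0.31. When libraries are scaled to equal totals of all genes, the nuclear medians turn positive while the mitochondrial genes stay below 0. That scaling also moves the median of all genes tested to 0.89, above every nuclear median.

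A list of nuclear genes, most of which serve to copy, transcribe and process mitochondrial DNA and RNA, was set beside the 10 genes. It also holds genes outside these tasks, such as clu, described below. Of 28 listed, 22 were tested, 8 were called lower and none higher with limma (edgeR and DESeq2 each 8 and 0, and none higher at an unadjusted p under 0.05), beside the 9.33%, 9.83% and 10.9% of all genes called lower by these tools. The median of the list on the log2 scale was -0.51, or 0.39 with equal totals of all genes, where 0 were called lower and 3 higher. In that scaling the median of all genes tested was 0.89, and relative to it the list stood at -0.50. The count of 8 was 0 without bru1M3 replicate 1 and 3 without each of the other libraries in turn. TFAM, which packages mitochondrial DNA and helps start transcription, had 1127 and 1132 normalized counts in w1118 and 544 and 667 in bru1M3, without overlap, and fell by 0.91 on the log2 scale (limma adjusted p = 0.0135). The mitochondrial RNA polymerase, mtRNApol in the table, had 671 and 647 against 280 and 458 normalized counts and just missed the threshold (log2 fold change -0.88, limma adjusted p = 0.0502). Its initiation factor mtTFB2 (-0.52, limma adjusted p = 0.190) and the LRPPRC-family RNA-binding gene bsf (-0.28, 0.302) were not called.

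Among the processing genes, limma called rswl (log2 fold change -1.22, adjusted p = 0.00748) and scu (-0.88, 0.0282), which act in freeing tRNAs from precursors. Of the same processing genes, mldr and RNaseZ lay above 0 without a call, as given below. The poly(A) polymerase gene MTPAP (-1.11, 0.0316), the RNA helicase gene Suv3 of the mitochondrial degradosome (-0.91, 0.0397), SLIRP2, named for an RNA-binding partner of LRPPRC in mammals (-1.20, 0.0478), and the transcription termination factor family gene mTerf5 (-0.91, 0.0320) were called as well with limma. So was clu (-1.03, limma adjusted p = 0.00845), whose protein binds mRNAs of nuclear-encoded mitochondrial proteins. Not all of the list fell, and 16 of the 22 tested genes had a log2 fold change below 0. The processing genes mldr (1.28, limma adjusted p = 0.173) and RNaseZ (0.76, 0.149) lay above 0 and were not called. Normalized counts of mldr were 8.5 and 24.1 in w1118 and 36.8 and 36.1 in bru1M3. Those of RNaseZ were 68.1 and 57.0 against 127 and 88.4. Leaving out any 1 library ended the calls of SLIRP2, mTerf5 and scu. Those of TFAM, MTPAP and Suv3 were lost without 3 of the 4 libraries, that of rswl without either bru1M3 library and that of clu without bru1M3 replicate 1. SLIRP2 was also not called with a pseudocount of 0.1 (limma adjusted p = 0.0519), with no filter on low values (0.0554) or with DESeq2 (0.0547). None of the 8 genes was called with equal totals of all genes, where the log2 fold changes of scu and mtRNApol were 0.014 and 0.025. The median of all genes tested was 0.89 in that scaling. The call of mtRNApol depended on the setting, with an adjusted p of 0.0261 with DESeq2 and 0.0334 with the replicate block.

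Over the 4 libraries, the centred log2 profiles of mt:CoI, mt:ND5 and mt:Cyt-b came closest to the median profile of the 10 genes, with root mean square distances of 0.107, 0.110 and 0.110, and mt:ND3 (1.90) and mt:ND4 (1.02) were farthest from it. Among 5650 nuclear genes whose mean reached 100 normalized counts, the nearest profiles belonged to l(3)72Dr (0.141), CG4267 (0.193), Slip1 (0.218), CG13931 (0.234) and the small heat shock protein gene Hsp27 (0.249). Hsp27, for example, had 870 and 532 normalized counts in w1118 and 82.6 and 99.2 in bru1M3. The measure is a description over 4 libraries.

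Some markers of other tissues were lower in bru1M3, as the mitochondrial mRNAs were. Over all genes tested, limma called 9.33% lower and 12.8% higher. The 3 tested gut proteases (Jon65Aiv, alphaTry and betaTry, of 4 listed gut genes) summed with the fourth to 10276 and 4315 normalized counts in w1118 and to 1847 and 621 in bru1M3, and all 3 were called lower with limma (log2 fold changes of -2.60, -2.58 and -2.77). The 3 photoreceptor genes ninaE, trp and ninaC summed to 2605 in w1118 replicate 1 and to 169, 17.1 and 215 in the other libraries, so that replicate 1 of w1118 stood apart in them as it did in mt:ND3 and mt:srRNA, and none was called with limma, edgeR or DESeq2 (2 of 3 had an unadjusted p under 0.05). The 4 listed tubular muscle genes, of which limma called 2 lower, summed to 4588 and 6640 in w1118 and to 1921 and 3019 in bru1M3. Neuron and glia genes summed to 1886 and 2924 against 810 and 1168 and haemocyte genes to 1448 and 1213 against 634 and 844 without overlap. Of these, limma called 1 of 4 neuron and glia genes and 2 of 3 haemocyte genes lower. Unlike the mitochondrial mRNAs, the tubular muscle and neuron and glia sums were higher in replicate 2 of w1118 than in replicate 1. Fat body genes (3 of 5 listed were tested) summed to 1600 and 1556 against 1561 and 1090, which overlapped, and among them limma called Lsp2 higher (log2 fold change 1.53, adjusted p = 0.0421) and apolpp lower (-1.05, adjusted p = 0.0288). The sums of trachea and epidermis genes (2003 and 1667 against 1520 and 2287), testis genes (35.7 and 78.9 against 37.5 and 27.7) and ovary genes (20.4 and 34.0 against 46.4 and 33.8) overlapped between genotypes as well. In every library the summed level of the 10 mitochondrial genes, 2745399 normalized counts or more, was far above any of these sums, and the part of other tissues in the result was not tested.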

How the data were processed

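Poly-A selected RNA of IFM from 2 pools per genotype was sequenced in pairs. Per the study's methods, the authors mapped reads with STAR to BDGP6.22 (annotation dmel_r6.32) and counted them with featureCounts. The submitters' processing notes list STAR 2.7.3a, SAMtools 1.1, Subread 2.0.0 and DESeq2 1.32.0. Whether reads or pairs were counted, and how strand, overlaps and multiple mapping were handled, is not given in the sources used here. The deposited gene values are a signal, namely counts that the authors divided by 1 size factor per library. All values (100%) were whole multiples, within 0.01, of what 1 read is worth in the library, so reads were recovered. The deposited exon table was used for its mean signal per exon bin over all libraries and for positions; 17 of 17 mitochondrial bins had the same positions in the Ensembl annotation BDGP6.54, from which mt:ATPase6, mt:CoIII, mt:ND4 and mt:lrRNA were placed. Its 4 columns per library, which match no label, were not used, nor were the authors' fold changes, exon usage values, p-values and adjusted p-values.

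After 2 second listings were dropped, the 9228 genes with at least 10 in at least 2 libraries were compared between bru1M3 and w1118 on log2(value + 1) with limma 3.58.1 (trend; R 4.3.3). A fold change on this scale understates the change of low genes. The same fit was repeated after scaling each library to equal sums of the members. Alternatives were edgeR 4.0.16 (quasi-likelihood), DESeq2 1.42.0, pseudocounts of 0.1 and 10, no filter or a minimum of 50, quantile normalization, equal totals, TMM factors, robust empirical Bayes, a replicate block, a threshold of 0.01 and leaving out each library. The fits were also run on simulated counts with the same dispersion for every gene. Those counts held no difference between replicates shared by the mitochondrial genes, as seen in w1118, so they do not cover that case. Members and gene lists were chosen with earlier results of these data known. Genes named are the members, bru1, the mitochondrial rRNAs and the 5 nearest profiles. Also named are called genes of the mitochondrial expression list with TFAM, mtRNApol, mtTFB2 and bsf, and the 2 most abundant nuclear subunits per complex. Outside this rule, ND-B8, ATPsynepsilonL, mldr, RNaseZ, Act88F and the tissue markers were singled out after their values were seen or taken from the marker lists.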

Additional observations from a re-analysis of the deposited data

Results flagged for a closer look

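The exon table gives the authors' mean of normalized counts per exon bin over the libraries they pooled. For mitochondrial genes that the comparisons do not use, all 9 of these means were above 0. As the authors' means, they were 82.8 for the bin of the protein gene mt:ND6, 97.7 for mt:tRNA:Cys-GCA, 491 for mt:tRNA:Tyr-GTA, 180 for mt:tRNA:Leu-TAA, 193 for mt:tRNA:Lys-CTT, 1488 for mt:tRNA:Gly-TCC, 102 for mt:tRNA:Ser-TGA, 24508 for mt:tRNA:Leu-TAG and 25.5 for mt:ori. They carry no SD and no split by genotype here, and they are not on the scale of the gene values. For example, mt:CoI had a bin mean of 5668659, beside gene means of 4664576 in w1118 and 918865 in bru1M3. The tRNA with the highest mean, mt:tRNA:Leu-TAG, lies between mt:ND1 and mt:lrRNA.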

How the results depend on the processing

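The log2 fold changes of the 10 genes were computed under 16 alternatives, and all 150 values outside quantile normalization were below 0. Of the 160 values, 126 stayed on the same side of the threshold, 23 were no longer called, 9 became called and 2, mt:CoI and mt:CoIII under quantile normalization, were 0.00. The count of 8 genes called lower was 4 at a threshold of 0.01 and 3 to 5 with 1 library left out. The count of 2 genes lower than the mitochondrial sum was 1 to 2 with 1 library left out, and 5 with the replicate number as a block. The block gave 6 genes in place of 8. Same-numbered libraries did not deviate together (correlation of deviations from the genotype means 0.03 over 9228 genes), so they share only a number. The difference in the share of reads was -76.7 percentage points against nuclear reads and -33.0 with the rRNAs included.

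Equal totals of all genes moved the median of all genes to 0.89 and equal totals of nuclear genes to -0.13. Relative to that median the members stood at -2.57 and -2.58, and the nuclear subunits at -0.50 and -0.52. With equal totals of all genes, the medians turned to 0.27, 0.59, 0.32, 0.34 and 0.48 for complexes I to V and 0.39 for the expression list, and log2 fold changes to 0.62 for bsf, 0.025 for mtRNApol, 0.38 for mtTFB2, 0.014 for scu, 0.41 for ND-MLRQ, 0.48 for ND-49, 0.45 for SdhA, 0.57 for SdhC, 0.52 for UQCR-C1, 0.11 for UQCR-14, 0.55 for COX4, 0.45 for COX5A, 0.38 for ATPsynC and 0.87 for ATPsynbeta. ATPsynbeta was also at 0.18 with quantile normalization, 0.011 with edgeR, 6.7e-04 with DESeq2 and -0.38 to 0.32 with 1 library left out. Relative to the mitochondrial sum, mt:ATPase6 was at -0.045 with the median member as reference and at -0.087 to 0.21 with 1 library left out, mt:CoI at 0.046 without the most abundant member, and mt:srRNA at -3.38 to 0.41 with 1 library left out. Depth limits most the values of mt:ND2, of mt:srRNA and, in bru1M3, of mt:ND3, which rest on the fewest reads.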
